A study of Drosophila melanogaster with 2 samples.

Results

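Upstream peaks at single-gene promoters are the sites of the chromatin protein E(var)3-9 that lie just before the start of transcription of 1 protein-coding gene with no start of another within reach. They were chosen from the 3438 reproducible peaks of a chromatin immunoprecipitation sequencing (ChIP-seq) study in Drosophila melanogaster embryos. A peak was kept if its summit, the point of strongest enrichment, lay within 500 bp of annotated transcription start sites (TSSs) of exactly 1 protein-coding gene and on the upstream side of the nearest of them. The rule left 928 peaks at 847 genes. Of the other peaks, 110 met the rule on the downstream side, 1 lay on the TSS base itself, 729 had TSSs of 2 or more protein-coding genes in reach and 1670 had none.

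The study holds 1 group with 2 biological replicates, numbered 2 and 3, and each is a separate collection of the same line. The embryos came from a transgenic fly line with a stable insertion that makes E(var)3-9 fused at its C-terminus to green fluorescent protein (GFP), and the protein was precipitated with an antibody against GFP. Each replicate pooled whole male and female embryos aged 0 to 24 h, and chromatin was sonicated to 200 to 800 bp. The sources used here do not name the promoter that drives the fusion, and no condition was compared. In whole embryos, fewer cells with the protein at a site and less protein per cell cannot be told apart.

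E(var)3-9 encodes a zinc finger protein, and mutations in it enhance position-effect variegation, in which a gene moved next to heterochromatin is silenced in some cells and not in others. A promoter is the DNA at which RNA polymerase II and the general factors assemble, and in flies housekeeping promoters often carry short motifs such as the DNA replication-related element (DRE) just before the TSS. Many fly genes lie head to head and share the DNA between their TSSs, so an upstream peak can be assigned to 1 gene by distance only where no second gene starts nearby.

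The strongest peaks show what the bound DNA looks like. The sequences below are 101 bases centred on the summit, read 5′ to 3′ on the strand of the gene from the RefSeq genome sequence of Release 6, which is dm6. These 5 come from the strongest peaks found in both replicates, outside annotated exons, and none holds TATCGATA (the DRE), GGTCACACT (the core of the motif bound by M1BP) or CATCNCTA (the core of another promoter motif) in either orientation.
CG14100 chr3L:19590559-19590659 (minus strand): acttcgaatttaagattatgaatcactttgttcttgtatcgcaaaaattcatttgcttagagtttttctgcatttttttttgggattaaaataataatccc
ph-p chrX:2137271-2137371 (minus strand): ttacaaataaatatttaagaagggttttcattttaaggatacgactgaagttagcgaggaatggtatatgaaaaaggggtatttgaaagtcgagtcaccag
amon chr3R:26714336-26714436 (minus strand): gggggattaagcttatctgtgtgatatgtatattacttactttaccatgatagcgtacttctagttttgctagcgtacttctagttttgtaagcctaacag
CG31145 chr3R:23669805-23669905 (minus strand): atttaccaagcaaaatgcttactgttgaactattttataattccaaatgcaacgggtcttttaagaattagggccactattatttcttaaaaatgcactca
Atf3 chrX:1275481-1275581 (minus strand): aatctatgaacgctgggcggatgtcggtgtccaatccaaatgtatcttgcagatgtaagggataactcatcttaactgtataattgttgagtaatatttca

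The next 5 are peaks, again outside annotated exons, with 1 of those motifs within 50 bp of the summit, and capitals mark the motif. CG7006 and eEF1gamma, which encodes a translation elongation factor subunit, hold TATCGATA. The sequence of muc, the gene of a pyruvate dehydrogenase complex subunit, holds GGTCACACT on the opposite strand. CG31855 and CG5199 hold CATCNCTA, in the first on the opposite strand.
CG7006 chr3R:24850522-24850622 (plus strand): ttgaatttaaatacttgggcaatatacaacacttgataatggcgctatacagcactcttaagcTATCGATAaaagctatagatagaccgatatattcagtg
eEF1gamma chr3R:29220046-29220146 (plus strand): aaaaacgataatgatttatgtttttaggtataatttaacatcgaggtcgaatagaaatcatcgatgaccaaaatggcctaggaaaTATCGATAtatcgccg
muc chr2L:7426565-7426665 (plus strand): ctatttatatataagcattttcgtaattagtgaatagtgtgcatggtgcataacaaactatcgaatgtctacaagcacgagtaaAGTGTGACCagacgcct
CG31855 chr2L:13369052-13369152 (plus strand): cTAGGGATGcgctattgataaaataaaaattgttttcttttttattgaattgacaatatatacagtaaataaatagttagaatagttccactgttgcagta
CG5199 chr3L:20452966-20453066 (minus strand): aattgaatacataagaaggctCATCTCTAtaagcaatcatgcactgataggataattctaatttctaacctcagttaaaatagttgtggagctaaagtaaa

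The signal value of a peak is the score that the authors' caller assigned to it, it has no stated scale, and it is used here only to order and describe peaks within a list. The peak of CG14100 had a joint signal of 1206, with 585 in replicate 2 and 621 in replicate 3. The peak of ph-p, which encodes the Polycomb group protein Polyhomeotic-proximal, had a joint signal of 643, with 308 in replicate 2 and 359 in replicate 3. The peak of amon, the gene of a prohormone convertase, had 576, with 317 and 260. The motif-bearing examples were weaker, from 155 for CG7006, with 97.0 in replicate 2 and 55.1 in replicate 3, down to 69.2 for muc, with 48.3 and 15.1.

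E(var)3-9-GFP sat on the upstream side of single-gene promoters about 9 times in 10. Of the 1039 single-gene promoter peaks, 89.3% lay upstream (95% Wilson interval 87.3 to 91.1), which is the share the rule divides on and is given as a description. Among the 3438 strongest regions of each replicate the share was 89.5% in replicate 2, with 930 upstream regions, and 87.6% in replicate 3, with 847 (mean 88.5% ± 1.36, SD, n = 2). Eligible upstream positions covered 6027810 bases and eligible downstream positions 7305010. Per megabase there were 154 peaks upstream and 15.1 downstream, a ratio of 10.2. Positions in reach of 2 or more genes had 367 peaks per megabase, those with no protein-coding TSS in reach 14.1, and the genome as a whole 25.7.

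Upstream regions also passed the authors' threshold more often than downstream ones. The joint list, called on both replicates together, held 3145 regions with the same position relative to a single gene, of which 29.5% were among the reproducible peaks (Wilson interval 27.9 to 31.1). Over all 24963 joint regions the share was 13.8%, and over the 1207 downstream single-gene regions it was 9.11% (7.62 to 10.9). The intervals of the upstream and downstream shares did not overlap, and they cover the counting of regions only. The reproducible peaks were the 3438 joint regions with a signal of 58.2 or more, so passing was a cut on joint signal. The irreproducible discovery rate (IDR) is the method by which the authors set it.

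Summits gathered between about 100 and 200 bp before the TSS and thinned out towards the TSS itself. The median distance was 192.5 bp, with quartiles of 114 and 302 bp and a range of 2 to 500 bp. Replicate 2 alone gave a median of 184 bp and replicate 3 a median of 206 bp (mean 195 ± 15.6, SD, n = 2). In bins of 50 bp, density was highest from 100 to 150 bp upstream, at 255 peaks per megabase, and fell to 78.2 in the last 50 bp before the TSS. On the far side it was 32.1 in the first 50 bp and 1.36 between 250 and 300 bp, where a single peak lay. Farther into the gene it rose again, to 21.0 between 450 and 500 bp, and 30 of the 110 downstream peaks lay beyond 400 bp. Only 55 upstream peaks lay within 50 bp of the TSS, 183 within 100 bp, and 97 beyond 400 bp.

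**Figure D1:**
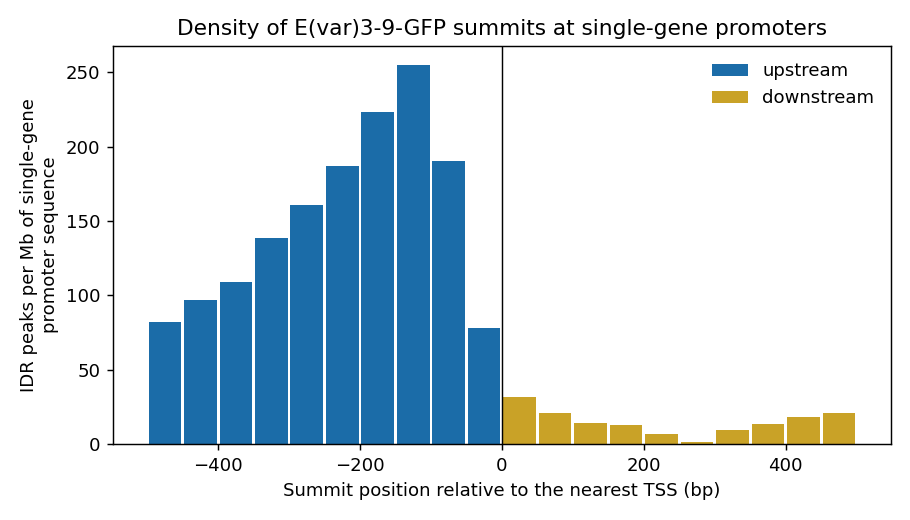
Density of summits at single-gene promoters. The x axis is the position of the summit relative to the nearest TSS in bp, with upstream to the left, and the y axis is peaks per megabase of eligible sequence in 50 bp bins. The tallest bar is 255 per megabase at 100 to 150 bp upstream, and every downstream bar is at 32.1 or below.

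The peaks at either edge of the rule are given as a description. Inside the limit lie the peaks of bark, a gene of cell junctions, and stv, the gene of the co-chaperone Starvin, both at 500 bp with joint signals of 109 and 172, and rols, needed for myoblast fusion, at 499 bp with 113. Just outside, at 503 bp, lie peaks of CG15211 with 64.8, Kank with 173 and mdy with 69.2. At the TSS the nearest members were Smn, the gene of the survival motor neuron protein, and ttv, encoding a heparan sulfate polymerase, both 2 bp upstream with 80.6 and 75.2, and scny, the gene of a deubiquitinase, 3 bp upstream with 111. On the other side of the TSS the nearest were BEAF-32, the gene of a boundary factor, 2 bp downstream with 79.8, Xbp1, a transcription factor of the unfolded protein response, at 11 bp with 102, and Treh, the trehalase gene, at 12 bp with 73.0. BEAF-32 also has a peak among the members, 65 bp upstream of another of its TSSs, with 79.0.

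Nearly all members had a counterpart in each replicate. A region with its summit within 150 bp was present in both complete replicate lists of 30000 regions for 882 of the 928 peaks (95.04%, Wilson interval 93.5 to 96.3), in replicate 2 alone for 37, in replicate 3 alone for 9 and in neither for 0. Such lists reach deep into weak regions, so a match can be weak. The members had also passed a cut that IDR set from these same replicates, so the selection itself favoured a match in both. The matched share of all reproducible peaks was not computed, so the value cannot show anything particular to the members. The 2 replicate summits lay a median of 32 bp apart, and 95 percent were within 117 bp of each other. The matching distance places the replicate summits of any member more than 150 bp from its TSS upstream by construction, so the side could differ only among nearer members. Of the 325 matched members within 150 bp of the TSS, 314 had both replicate summits upstream and 11 did not.

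Upstream peaks were of middling strength, close to the average reproducible peak. Their median joint signal was 91.7, with quartiles of 71.2 and 138 and a range of 58.2 to 1206, against 89.3 over all reproducible peaks. Downstream single-gene peaks had a median of 84.5, peaks between divergent TSSs 101, and peaks with no protein-coding TSS in reach 85.3. The median member stood at percentile 52.4 of all peaks by signal, at 53.6 in replicate 2 and 53.9 in replicate 3 among the 3438 strongest regions of each. The strongest 860 of all 3438 peaks held 255 upstream peaks, which is 27.5% of the 928 (Wilson interval 24.7 to 30.4). Regions of 1 pair of libraries are not replicates of a condition, so no test between these sets was made.

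Strength hardly followed distance. Over the 928 peaks Spearman's rank correlation between distance and joint signal was 0.0649, a description over peaks that share both libraries. The bin medians rose from 80.4 within 50 bp of the TSS to 108 at 200 to 250 bp and were 86.9 at 450 to 500 bp. In groups of 0 to 100, 100 to 200, 200 to 300 and 300 to 500 bp, medians were 49.0, 57.3, 61.6 and 53.1 in replicate 2 and 34.1, 40.3, 43.0 and 39.3 in replicate 3. The nearest group was the lowest and the 200 to 300 bp group the highest in each replicate.

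**Figure D2:**
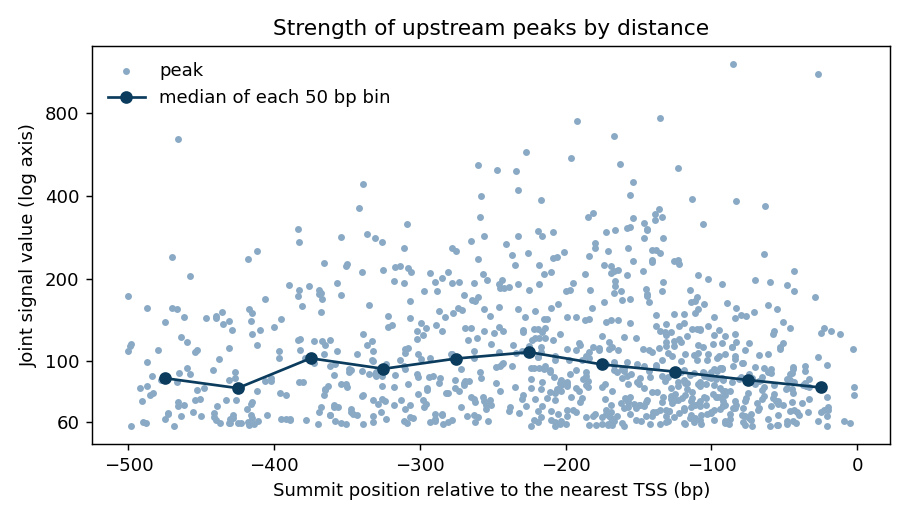
Joint signal of the 928 upstream peaks (log axis) against the position of the summit relative to the nearest TSS in bp. Points are peaks and the line joins the medians of 50 bp bins, which run from 80.0 to 108, while single peaks run from 58.2 to 1206.

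The replicates ranked upstream peaks alike only in part. Among the 882 matched peaks the median signal was 55.6 in replicate 2 and 39.2 in replicate 3, replicate 2 was the higher in 735, and the values differed by more than 2-fold in 183. Across these peaks Spearman's rank correlation was 0.647 and Pearson's r on the log2 scale 0.729, given as descriptions over peaks that were themselves chosen on the joint signal. Of the 232 strongest members all were matched in both replicates, and of the 232 weakest 204 (87.9%).

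**Figure D3:**
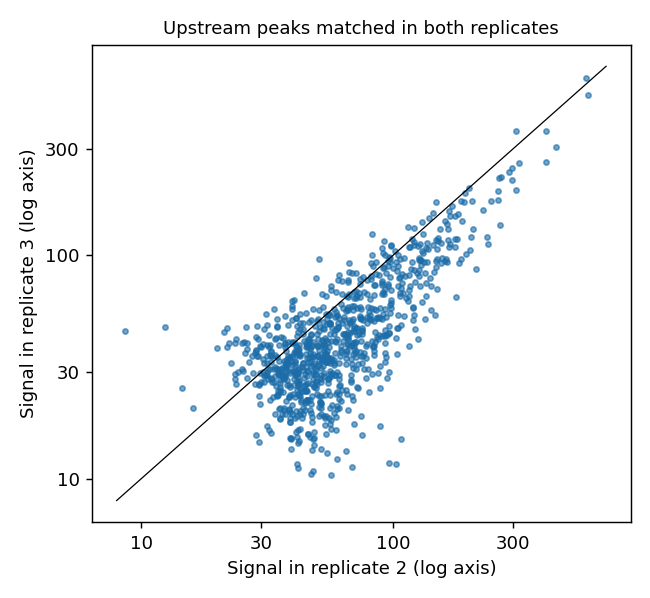
Signal of the 882 matched upstream peaks in replicate 2 (x) and replicate 3 (y), both on log axes, with the line of equal values. Most points, 735, lie below the line, and the scatter is widest among weak peaks.

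The strongest members served varied functions. Ugalt, the UDP-galactose transporter gene, had 1114 with its summit 27 bp from the TSS, 596 in replicate 2 and 520 in replicate 3, and the summit window was 52.2% A+T. The peak of px, a gene of wing vein patterning, had 747 in an intron of the gene, with 444 and 307. SLC5A11, a sodium-coupled solute transporter gene, had 658, with 403 and 262. Sox14, which encodes a transcription factor, had 519, with 288 and 235, and Atf3, encoding a basic leucine zipper factor, 498, with 268 and 225. For each of these 5 peaks replicate 2 was the higher. The remaining named peaks of the strongest 12 were mRpL41 with 768, CG31145 with 548, Tina-1 with 523 and Fkbp14, the gene of a prolyl isomerase, with 504. At the lower end, ND-B22, a complex I subunit gene, had 58.2, with 32.2 and 16.6, and fal had 58.3, with 32.4 and 22.5.

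Most genes had a single upstream peak. Of the 13945 protein-coding genes, 16.5% had a reproducible summit within 500 bp of a TSS and 6.07% had an upstream single-gene peak. Of the 847 genes, 778 had 1 peak, 61 had 2 and 8 had 3 or more, and 18 also had a downstream single-gene peak. Rtnl1, which encodes a reticulon of the endoplasmic reticulum, had 5 peaks before 4 of its TSSs on 2L, with joint signals of 398, 268, 117, 99.9 and 84.6. The first 2 were the strongest in both replicates, with 199 and 148 in replicate 2 and 199 and 117 in replicate 3. larp, the gene of an RNA-binding La-related protein, had 3 peaks at 3 TSSs with 442, 89.8 and 73.4. RapGAP1, a GTPase-activating protein gene, had 3 with 334, 92.5 and 81.8, of which the first and second lay before the same TSS and overlap. Of the 928 peaks, 92 overlap another member and share DNA with it.

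Many peaks lay before an internal start of their gene. At 294 peaks (31.7%) the summit was inside the gene's own span, before a TSS that is not its most upstream, and at 634 it lay before the most upstream. The internal peaks had a median joint signal of 101 and a median distance of 236.5 bp, against 89.1 and 167 bp for the rest. The ph-p summit is of this kind, 466 bp before its TSS. By annotation, 554 summits (59.7%) were intergenic, 303 (32.7%) intronic, 30 in a 5′UTR, 18 in a 3′UTR and 23 in a noncoding exon. None of 928 fell in a coding exon, which leaves an upper Wilson bound of 0.412%. No shares over all eligible upstream bases stand beside these counts, so they cannot show that any class was preferred or avoided. Another protein-coding gene's span held 79 summits, a noncoding TSS lay within 500 bp of 67, and 6 lay in an annotated transposable element.

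Genes with an upstream peak were longer and had more starts than other genes with an eligible position. Their median length was 5900 bp, with quartiles of 2335 and 15910 bp, against 2270 bp over the 10517 genes with at least 1 eligible upstream position, of which 8.05% had a peak. A single TSS was annotated for 45.6% of them against 70.3%, and the median number of exons was 5 against 3. A gene with more TSSs has more sequence in which a peak can fall, and its part in this difference was not tested. The next gene upstream pointed the same way for 51.2% of member genes against 48.6% of eligible ones, pointed away for 38.8% against 33.8%, and overlapped the gene start for 9.92% against 17.6%. Genes known only by a number made up 28.6% of member genes and 43.7% of all protein-coding genes.

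Distance sorted genes by length. Peaks within 100 bp of the TSS were at genes with a median length of 2870 bp, those at 100 to 200 bp at genes of 5648 bp, and those at 200 to 300 and 300 to 500 bp at genes of 9469 and 9340 bp. The share before an internal start was 16.4%, 24.5%, 43.7% and 42.2% over the same groups.

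Genes of cytoplasmic ribosomal proteins carried upstream peaks close to the TSS. Of 85 such genes 22 (25.9%, Wilson interval 17.8 to 36.1) were members, against 6.07% of all protein-coding genes, and 55 of the 85 had an eligible position. Their 24 peaks had a median distance of 78.5 bp and a median joint signal of 75.3, both below the medians of all members. The strongest were RpL23A, a large subunit protein gene, with 163 at 89 bp (104 in replicate 2 and 54.2 in replicate 3), and RpS3A, of the small subunit, with 156 at 83 bp (96.8 and 59.8). RpS4 followed with 113, and RpL30, the weakest of the 22 at 61.0, had no match in replicate 3.

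Lists of gene expression, oxidative phosphorylation, proteasome and DNA replication genes had shares from 0 to 8.82% of all their genes. These lay around the 6.07% of all protein-coding genes. Many of their genes have no eligible position, and 8.05% of all eligible genes were members. Over eligible genes the share was 19.4% of 31 for the list of RNA polymerase II, Mediator and general factors. It was 15.8% of 19 for mitochondrial ribosomal proteins, 10% of 30 for translation initiation factors and 9.62% of 52 for oxidative phosphorylation. Aminoacyl-tRNA synthetases had 7.69% of 13 and the proteasome 3.45% of 29. The share was 0 of 14 for splicing, 0 of 22 for DNA replication and 0 of 8 for RNA polymerases I and III. The list of RNA polymerase II, Mediator and general factors had 6 of 68 genes (8.82%, 4.11 to 17.9), led by Polr2F, a polymerase subunit, with 181 at 43 bp (83.1 and 89.7), and MED4, a Mediator subunit, with 128 (78.7 and 50.02). Translation initiation factors had 3 of 44, led by eIF6 with 382 (193 and 190) and eIF3c with 133 (71.7 and 58.1). Mitochondrial ribosomal proteins had 3 of 73, led by mRpL41 (405 and 359) and mRpL4 with 92.8. Oxidative phosphorylation had 5 of 87, led by ND-49 with 87.1 and UQCR-11 with 67.6. Aminoacyl-tRNA synthetases had 1 of 33, the proteasome 1 of 48, splicing 0 of 39, DNA replication 0 of 38 and RNA polymerases I and III 0 of 19. The upper Wilson bounds of the 3 lists at 0 were 8.97%, 9.18% and 16.8%, all above the background share.

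Genes of signalling pathways, the Polycomb group and the cell cycle were also among the members, and their counts stand beside 6.07% of all protein-coding genes and 8.05% of eligible ones. The signalling list had 9 of 56 genes (16.1%, 8.69 to 27.8), and 40 of the 56 had an eligible position. Its 10 peaks lay 57 to 427 bp from the TSS, at a median of 251 bp. Its strongest were spi, an epidermal growth factor receptor ligand, with 249 at 226 bp (115 and 134), and sgg, a kinase of the Wingless pathway, with 192 at 195 bp (128 and 72.9). The ligand and the inhibitor cact (167) stood above the receptors InR (105), htl (64.0) and N (62.1). The Polycomb group had 4 of 20 genes (8.07 to 41.6%), with ph-p and then pho, a DNA-binding member, at 106 (69.4 and 46.04), and its 4 peaks lay 148 to 466 bp from the TSS. The cell cycle had 4 of 37 (10.8%, 4.29 to 24.7), led by Dp, the E2F partner, with 182 (91.1 and 87.6), and CycE with 140 (76.3 and 68.9), and its 4 peaks lay 94 to 431 bp from the TSS.

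Modifiers of variegation, the class in which E(var)3-9 itself was found, had 3 of 27. They were Hmt4-20, a histone methyltransferase, with 122 (75.3 and 45.7), chif with 101 (41.2 and 52.5), and JIL-1, a histone H3 kinase, with 65.4, which is counted among the insulator and border proteins too. Insulator and border proteins had 3 of 23, led by BEAF-32 (49.0 and 29.0) and Clamp, a zinc finger protein that binds GA repeats, with 67.9. Heat shock proteins had 4 of 30, led by Hsp27, a small chaperone, with 449 at 154 bp (262 and 194), and Hsp60A, a mitochondrial chaperonin, with 81.4. The homeotic list had 1 of 12, bcd, which lies among the homeotic genes but encodes a maternal determinant of the anterior, with 82.9 (46.6 and 34.7), and cytochrome P450 genes 2 of 83. None was found among 27 trithorax group and remodeller genes, 27 segmentation genes, 121 cuticle protein genes, 180 chemosensory receptors and 111 replication-dependent histone genes. These lists differed in reproducible summits on any side within 500 bp of a TSS, which 16.5% of all protein-coding genes had. The trithorax list had 10 such genes (37.0%), the chemosensory list 1 and the segmentation, cuticle and histone lists 0. Only 16 of the trithorax genes had an eligible upstream position. The upper bounds for the cuticle and chemosensory lists were 3.08% and 2.09%, below the background share of 6.07%. For the trithorax and segmentation lists the upper bound was 12.5%, above that share. The histone genes are near-identical copies in which reads may not be placed uniquely, and only 27 of them had an eligible position.

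Summit DNA held more A and T than the sequence around it. Within 100 bp of the summit the mean was 66.02% A+T (SD 6.64 over 928 peaks), with A at 32.6% and T at 33.4% on the strand of the gene. Windows centred 1000 bp to either side held 58.0% on the upstream side and 56.7% on the gene side, and the genome as a whole 57.8%. In 763 of the 928 peaks the summit window was above the mean of its own 2 flanks. Single windows ran from 36.8% to 89.1%. The strongest printed examples lay within this range, from 52.7% in amon to 67.7% in CG31145 over the same window.

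Richness in A and T was shared with other peak positions and stood above promoters with no region. Downstream single-gene peaks had 63.2%, divergent peaks 67.8% and peaks with no protein-coding TSS in reach 66.1%. Weaker joint regions at the same upstream position had 63.2% (n = 2217), and 6081 promoters with no joint region had 61.8% at the same median distance from the TSS. A+T content did not follow strength (Spearman's rank correlation -0.0005 over 928 peaks), with 66.1% in both the 232 strongest and the 232 weakest. It rose with distance, from 62.9% within 100 bp to 68.0% at 200 to 300 bp (rank correlation 0.226). Windows of near summits take in DNA next to the TSS, which held 51.7% A+T at 50 bp upstream in member promoters. Promoters with no region were also lower there, with 57.9% against 62.1% at 170 bp upstream. The part of window position in the rise was not tested.

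The A+T maximum lay at different distances from the TSS in nearer and farther peaks. In bins of 20 bp about the TSS, the 464 peaks nearer than the median, at a median of 114 bp, had their maximum of 71.0% at 170 bp upstream. The 464 farther ones, at a median of 302 bp, had theirs of 67.6% at 290 bp upstream and were lowest, 47.2%, 30 bp inside the gene. Promoters with no joint region reached at most 62.1%. About the summit the highest bin, 69.2%, lay 50 bp to the upstream side and the lowest, 52.8%, 250 bp to the gene side.

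**Figure D4:**
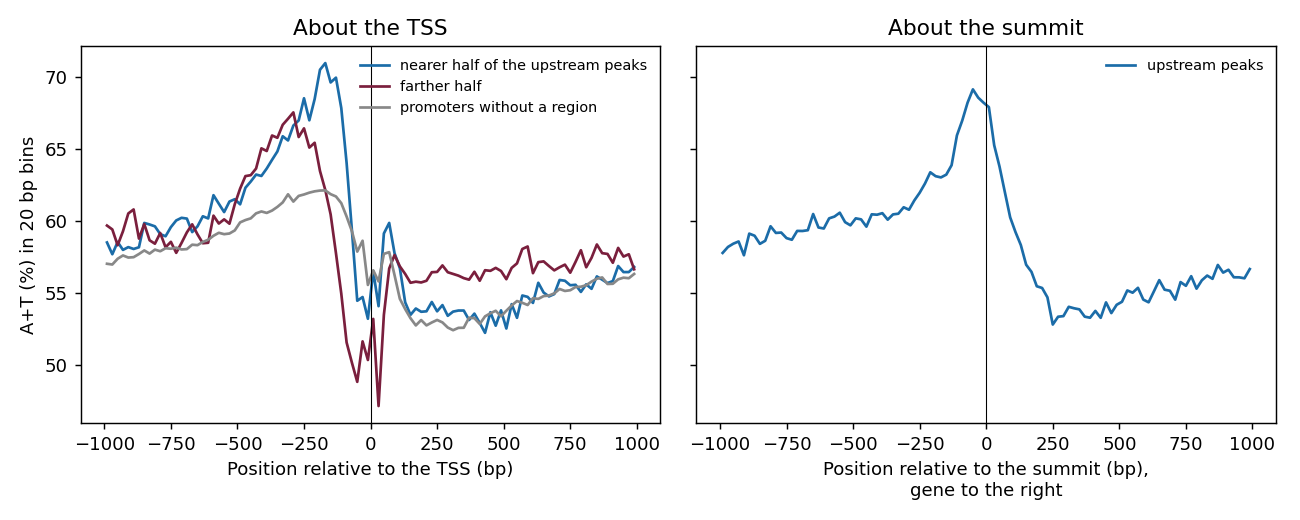
A+T percentage in 20 bp bins about the TSS (left: upstream peaks nearer and farther than the median and promoters with no region) and about the summit (right, gene to the right). The nearer and farther peaks reach 71.0% and 67.6% at different distances from the TSS, and the profile about the summit has 1 maximum of 69.2%.

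Housekeeping promoter motifs were several times more frequent at the summits than in the flanks, but most summits had none. The motif TATCGATA, which is its own reverse complement and contains CGATA, was found within 100 bp of the summit in 43 peaks (4.63%, Wilson interval 3.46 to 6.18), in 0.593% of 1856 flank windows and in 1.07% of promoters with no region at 192 bp before the TSS. In the 50 bp before the TSS the difference was smaller, and matches to TATCGATA were 2.91 per 100 windows at member promoters and 2.01 at promoters with no region. CATCNCTA was found in 39 (4.20%, 3.09 to 5.69), against 0.916% and 1.05%. GGTCACACT was found in 14 (1.51%, 0.901 to 2.52), against 0.269% and 0.280%. For both motifs the contrast with promoters with no region was also smaller in the 50 bp before the TSS. There CATCNCTA had 2.16 matches per 100 windows at member promoters and 1.07 at promoters with no region, and GGTCACACT 1.19 and 0.707. Among the strongest regions of each replicate alone, TATCGATA was in 4.52% of upstream regions in replicate 2 and 3.54% in replicate 3, and GGTCACACT in 1.72% and 0.945%, so the GGTCACACT share without replicate 2 was more than 1.5 times below that of the joint peaks. Both strands were searched, and at least 1 of the 3 was present in 89 peaks (9.59%). The shares were much the same in weaker joint regions at the same upstream position, with TATCGATA in 5.05%, CATCNCTA in 4.33% and GGTCACACT in 1.89%, and in the 110 downstream single-gene peaks, with 4.55%, 5.45% and 0.909%. Peaks between divergent TSSs held TATCGATA in 7.62% and CATCNCTA in 9.72%, and peaks with no protein-coding TSS in reach in 0.299% and 1.14%. A match describes these letters and is not a binding site.

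These motifs were more frequent in peaks nearer to the TSS, though many of their peaks lay farther out. Each window reached 100 bp from the summit. On a summit more than 200 bp out, it could not cover the 100 bp before the TSS. At member promoters, matches to TATCGATA were densest in the 50 bp before the TSS, with 2.91 per 100 windows. How far window position sets the fall with distance was not tested. TATCGATA was in 14.2% of peaks within 100 bp, 3.64% at 100 to 200 bp, 1.46% at 200 to 300 bp and 1.27% at 300 to 500 bp. CATCNCTA was in 7.65%, 5.30%, 3.40% and 0.844% of the same groups, and its peaks had a median distance of 126 bp. GGTCACACT was in 3.83%, 1.66%, 0.971% and 0%. Within 100 bp lay 26 of the 43 peaks with TATCGATA and 7 of the 14 with GGTCACACT. Peaks with TATCGATA had a median distance of 92 bp and a median signal of 81.4, against 199 bp and 92.8 for those without. CGATA, the 5-base core recognised by the boundary factor BEAF-32, was in 54.6% of peaks within 100 bp and 22.8% of those at 300 to 500 bp. Its matches were densest in the 50 bp before the TSS, with 27.4 per 100 windows against 17.2 in promoters with no region, and on the gene side of the summit, 50 to 100 bp away, with 18.6.

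Of the other motifs searched, TATAAA was in 41.5% of summit windows, 21.0% of flanks and 30.2% of promoters with no region. AAAAAAA was in 25.5%, 16.002% and 20.4%. Both are made of A and T alone, and the summits had more A+T than either comparison set, whose part in these shares was not tested. CGATA over all peaks was in 32.5%, 24.7% and 23.8%, TCAGT, part of the initiator, in 35.5%, 27.4% and 29.1%, and GTATNTTT in 11.0%, 7.22% and 8.14%. GAGAG, the core bound by GAGA factor, was near even in these windows, with 21.6%, 22.2% and 22.4%. The E-box CAGCTG was in 7.65%, 9.64% and 7.45%, below the flanks and level with promoters with no region. CAGGTA, bound by Zelda, was in 3.34%, 4.80% and 4.95%. The E-box CACGTG was in 1.94%, 2.91% and 2.20%. CACACACA was scarce, in 1.29% against 5.28% and 3.06%. Windows about the TSS gave other contrasts for GAGAG and TATAAA, in matches per 100 windows, and 1 window can hold several. From 50 to 100 bp upstream, GAGAG had 48.5 at member promoters and 16.05 at promoters with no region. About the summit it was sparsest in the 50 bp on the upstream side, with 6.36. In the 50 bp before the TSS, TATAAA had 7.22 at member promoters and 18.9 at promoters with no region. From 200 to 250 bp upstream it had 19.8 and 10.9. CACACACA had 4.20 at member promoters and 1.92 at promoters with no region from 50 to 100 bp upstream. From 250 to 300 bp inside the gene it had 10.2 and 2.38, but from 250 to 300 bp upstream 0.970 and 2.06. CAGCTG had 6.14 and 3.82 in the 50 bp before the TSS.

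**Figure D5:**
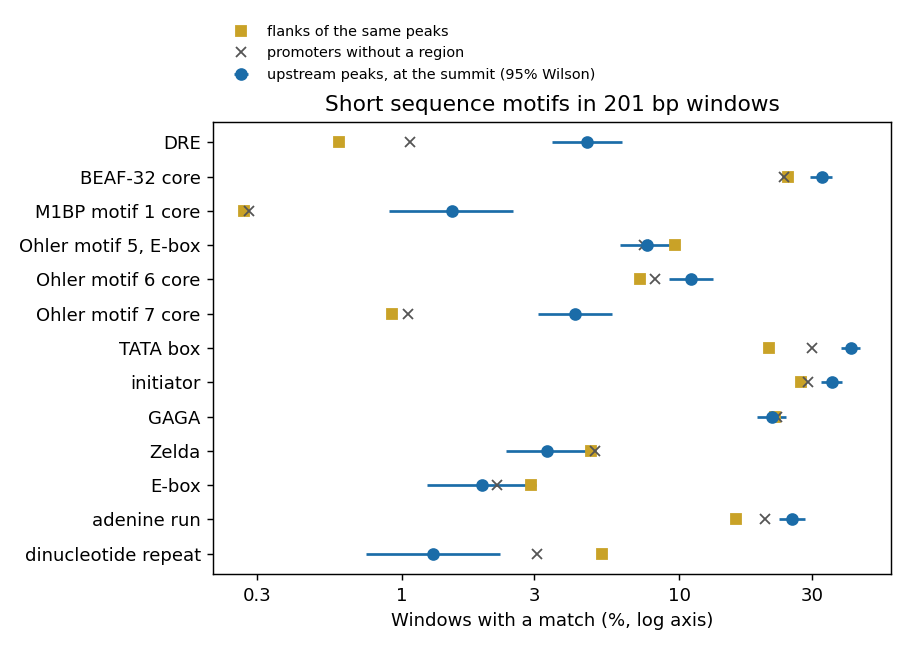
Share of 201 bp windows with a match to each of 13 motifs (log axis, percent). Circles with 95% Wilson intervals are upstream peaks at the summit, squares their flanks and crosses promoters with no region, and the DRE is at 4.63% of summit windows against 0.593% of flanks.

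Upstream peaks were spread over all arms, with 181 on 2L, 184 on 2R, 175 on 3L, 198 on 3R and 164 on X, at 140 to 164 peaks per megabase of eligible sequence. Chromosome 4, a small chromosome rich in repeats and heterochromatin marks, had 26 at 23 genes, or 506 per megabase of its 51421 eligible bases. These were 26 of the 40 reproducible peaks on that chromosome. Each replicate alone gave 27 and 20 there. Peaks on chromosome 4 lay close to the TSS, at a median of 97 bp, and were weak, with a median joint signal of 79.0 and 2 among the strongest 860 of all peaks. The strongest were PlexA, a semaphorin receptor gene, with 214 (98.2 in replicate 2 and 111 in replicate 3), and RpS3A. gw, which encodes a protein of microRNA silencing, had 3, of which the strongest had 117 (64.0 and 44.7). A share of 42.6% of the 61 joint regions at upstream positions there were reproducible peaks, against 29.5% over the genome.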

How the data were processed

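E(var)3-9-GFP ChIP-seq lists of 2 replicates were used in assembly dm6. Per the notes the authors deposited with them, IDR took as its input a long list of regions, background included, from each replicate (30000) and from both together (24963), and a further list holds the joint regions past the IDR threshold (3438). The signal of a region is a score given by the authors' caller and deposited with no stated scale. The sources used here do not name the aligner, the caller or the threshold. Read depth is unknown. The dm3 lists, the control, signal tracks and alignments were not used here. Nothing pairs the replicates with other samples.

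Summits were read as 1-based dm6 positions and set against 19607 distinct TSSs of 13945 protein-coding genes (Ensembl release 115, on the 6 arms of genome Release 6). Replicate regions matched within 150 bp of the summit. Base composition and 13 motifs were read in 201 bp windows at the summit and centred 1000 bp to either side, and promoters with no joint region were sampled 192 bp upstream of the TSS. Genes were assigned to 23 lists by symbol. The symbol patterns of the cytoplasmic ribosomal protein, cell cycle and cytochrome P450 lists were narrowed after their values had been seen, to leave out paralogs and symbols of other families, which sets their denominators. No test was made, since there is 1 group and regions are not replicates. The 95% Wilson intervals cover the counting of regions only.

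The members, lists and motifs were chosen with earlier results of these data known. The rule for named genes takes the 12 strongest members matched in both replicates, the 3 weakest, the 3 nearest to each edge of the rule with the 3 beyond it, the 2 strongest of each list with 3 or more member genes, and up to 5 genes with several peaks. Genes outside it were named after their values were seen. One of the 3 weakest is not reported here. Alternatives were promoter windows of 250 and 1000 bp, 1 TSS per gene, genes of every biotype, the strongest 860 peaks, each replicate alone, other motif windows and other matching distances. Position classes and motif searches were tested on simulated data. Python 3.11.15, numpy 2.4.6, pandas 2.3.3, scipy 1.17.1 and matplotlib 3.10.9 were used.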

Additional observations from a re-analysis of the deposited data

How the results depend on the processing

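Of 58 alternative values, 25 stayed within the spread of the replicates, the interval or 1.5 times the count, and 33 moved. The cause of these moves was not tested, apart from what each setting fixes by its construction. With a promoter window of 250 bp the median distance was 127 bp, the median percentile of signal 51.5, and TATCGATA and GGTCACACT were in 6.84% and 2.08% of members. With 1000 bp the upstream share was 81.2%, the median distance 234 bp and the share with TATCGATA 3.41%. With 1 TSS per gene these were 86.7%, 167 bp and 5.76%, and the median percentile was 50.7. Among the strongest 860 peaks there were 255 members, 90.7% upstream, at a median distance of 215 bp and a percentile of 55.6 within them, with TATCGATA in 3.14% and GGTCACACT in 0.392%. Leaving out 1 replicate gave 847 to 930 members, an upstream share of 87.6 to 89.5%, a median distance of 184 to 206 bp, a percentile of 53.6 to 53.9, A+T of 65.6 to 65.8%, TATCGATA in 3.54 to 4.52% and GGTCACACT in 0.945 to 1.72%. The lower end of both motif shares came from replicate 3 alone. Windows of 50 and 200 bp to either side of the summit gave A+T of 67.3% and 63.3%, TATCGATA in 1.83% and 6.90%, and GGTCACACT in 0.431% and 3.34%. Matching of members in both replicates was 80.5% within 75 bp and 97.6% both within 300 bp and by overlap of at least 1 bp. No paired analysis was possible because there is 1 group. The depth of the libraries is unknown and limits how far weak or unmatched peaks can be read.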
